A study of Arabidopsis thaliana with 2 samples.

Results

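Cytokinin signalling was described here through 9 genes measured in single-nucleus RNA-seq of Arabidopsis inflorescences, out of 36632 nuclear genes in the tables. They are the receptors AHK2 (AT5G35750), AHK3 (AT1G27320) and AHK4 (AT2G01830), the inhibitor AHP6 (AT1G80100), and the type-A response regulators ARR4 (AT1G10470), ARR5 (AT3G48100), ARR6 (AT5G62920), ARR7 (AT1G19050) and ARR15 (AT1G74890). The 9 genes were selected on values measured in these same libraries, their level by day and tissue over barcodes with at least 1000 nuclear genes, so those levels are given as a description with no test.

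Both libraries came from 1 plant line in the Ler background, which carries the pAP1:AP1-GR transgene together with the mutations ap1-1 and cal-1. In these plants AP1, a transcription factor that starts flower formation, is fused to the hormone-binding part of the glucocorticoid receptor and driven by its own promoter, while the ap1 and cal mutations leave cauliflower-like inflorescences that wait for the signal. Dexamethasone (DEX), given daily to the main inflorescences, lets the fusion protein enter the nucleus and flowers then form in synchrony. The day 3 library is labelled as stage 4 of flower development and the day 4 library as stage 5, and whole inflorescences were pooled for each, so pedicel and stem tissue may be present as well as floral meristem. The protocol text of both libraries names the fourth day, which goes against the title of the day 3 library, and the titles, which the methods of the study bear out, were followed. Each day has 1 library, so no difference between days has a replicate check, and PCR cycles and sequencer also differed between the days and cannot be told apart from them.

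Cytokinin is bound by histidine kinase receptors, which pass a phosphate to histidine phosphotransfer proteins and through them to response regulators in the nucleus. Type-B response regulators are transcription factors that switch on cytokinin targets, and among those targets are the type-A response regulators, which dampen the same pathway. AHP6 is a pseudophosphotransfer protein that cannot carry the phosphate and so inhibits signalling. It is known from the protoxylem of the root and from the young organ primordia of the shoot apex, where it acts downstream of auxin.

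The feature that sets AHP6 apart from its family lies in 1 codon, so the coding stretch around that codon is shown for all 6 AHP genes. The stretches were read from the RefSeq TAIR10.1 reference, which is the Columbia accession and not the Ler background of the plants. Each has 36 bases on the coding strand, in capitals the codon of the residue that receives the phosphate in the active proteins.
AHP1, chr3:7578963-7578998, minus strand: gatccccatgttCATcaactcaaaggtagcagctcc
AHP2, chr3:11264843-11264878, minus strand: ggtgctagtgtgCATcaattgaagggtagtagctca
AHP3, chr5:15749742-15749777, plus strand: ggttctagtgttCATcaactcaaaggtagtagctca
AHP4, chr3:5554746-5554781, plus strand: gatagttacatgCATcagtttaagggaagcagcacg
AHP5, chr1:848676-848711, plus strand: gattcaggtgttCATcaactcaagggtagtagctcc
AHP6, chr1:30134164-30134199, plus strand: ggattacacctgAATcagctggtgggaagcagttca
The codon is CAT, for histidine, in AHP1 to AHP5 and AAT, for asparagine, in AHP6, where it is codon 83 of 160. Of the 4 AHP genes with at least 200 counted RNA molecules over both libraries, AHP6 alone was lower at day 4 by at least 1.5-fold. Among all genes with as many, 3.30% were. AHP1 and AHP4 had too few to compare, as given with the pathway values later on. A link between the codon and the level was not tested.

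The type-A genes were all higher at day 4 and AHP6 lower, so 250 bases before the annotated gene start are shown for AHP6 and for the 3 type-A genes that passed 1.5-fold (ARR15) or had over 500 UMIs in each library (ARR4 and ARR7). A UMI is a molecular tag that marks 1 captured RNA molecule. Capitals mark matches on either strand to AGATT or AGATC, to the palindrome AAGATCTT, which holds AGATC, or to the auxin response element forms TGTCTC and TGTCGG. The first 3 are forms of the sequence that type-B response regulators bind. All 4 windows are from TAIR10.1, written 5′ to 3′ along the gene.
AHP6, chr1:30133468-30133717, plus strand: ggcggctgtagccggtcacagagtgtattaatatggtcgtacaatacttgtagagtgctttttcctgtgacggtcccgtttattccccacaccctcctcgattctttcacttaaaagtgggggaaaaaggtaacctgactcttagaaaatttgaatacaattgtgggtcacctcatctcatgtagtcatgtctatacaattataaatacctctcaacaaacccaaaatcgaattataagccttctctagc
ARR4, chr1:3444361-3444610, minus strand: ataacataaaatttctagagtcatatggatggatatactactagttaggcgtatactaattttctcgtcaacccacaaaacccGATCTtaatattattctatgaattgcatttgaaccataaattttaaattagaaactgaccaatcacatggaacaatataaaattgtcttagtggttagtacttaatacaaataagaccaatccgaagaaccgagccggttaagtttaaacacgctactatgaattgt
ARR7, chr1:6579315-6579564, minus strand: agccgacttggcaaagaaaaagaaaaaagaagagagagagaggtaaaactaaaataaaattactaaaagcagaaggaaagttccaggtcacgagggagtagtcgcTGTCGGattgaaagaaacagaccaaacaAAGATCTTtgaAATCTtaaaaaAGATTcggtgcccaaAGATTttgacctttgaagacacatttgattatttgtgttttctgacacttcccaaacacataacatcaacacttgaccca
ARR15, chr1:28133026-28133275, minus strand: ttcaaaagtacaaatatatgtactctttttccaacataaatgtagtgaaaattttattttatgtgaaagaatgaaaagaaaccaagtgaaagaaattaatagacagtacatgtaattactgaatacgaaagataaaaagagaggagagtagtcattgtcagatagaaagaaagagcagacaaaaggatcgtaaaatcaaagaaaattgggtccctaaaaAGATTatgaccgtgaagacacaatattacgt
The AHP6 window held none of the 5 motifs, ARR4 and ARR15 held 1 match each, and ARR7 held 7, of which the palindrome and 2 AGATC matches overlap and 1 is TGTCGG. An empty window was not particular to AHP6. Among the windows not shown, those of AHK2 and AHK3, both higher at day 4, also held none. ARR5 held 2 matches, ARR6 held 3 and AHK4 held 3. Over the 9 genes, AGATT was found in 4 windows, AGATC in 4 and AAGATCTT in 1. Among the 250-base windows of 27443 protein-coding genes, AGATT was in 63.7%, AGATC in 26.6%, AAGATCTT in 0.809%, TGTCTC in 10.9% and TGTCGG in 4.16%. No window of the 9 genes held TGTCTC. These matches describe letters in a short window and say nothing on which factor binds there.

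After the minimum of 1000 nuclear genes per barcode, 4397 nuclei with 11083512 UMIs were kept at day 3 and 4545 nuclei with 10202530 UMIs at day 4. The median nucleus held 1842 and 1805 UMIs, organelle transcripts took 2.85% and 2.63% of UMIs, and the libraries shared 6 barcodes. Each of the 8 floral meristem markers had UMIs in both libraries. Their summed level was 765 CPM, which is UMIs per 1000000 nuclear UMIs, at day 3 and 510 at day 4. Every marker of the other tissue lists had UMIs as well, so this does not single out floral tissue. Over all genes with at least 200 UMIs (14740), the log2 of the day 4 level divided by the day 3 level, computed on CPM + 1, had a median of 0.08. Intervals given with levels and folds are exact 95% intervals for counting error only, and UMIs of 1 nucleus are not independent, so they are too narrow where a few nuclei hold many UMIs.

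Over whole libraries, AHP6 went in the opposite direction to the receptors and the type-A genes. The 3 receptors and the 5 type-A response regulators were all higher at day 4 than at day 3, by up to 2.26-fold, whereas AHP6 was lower by 2.32-fold. Of all 14740 genes with at least 200 UMIs, 8894 were higher at day 4 as well. The intervals of the AHK4 and ARR6 ratios included 1. The direction of AHK4 changed with the scaling and that of ARR5 with thinning, as given with their values. Of the 6 genes with at least 200 UMIs, 1 was lower by at least 1.5-fold (AHP6), where 3.30% of all genes were, and 0 were higher, where 4.36% of all genes were. ARR5, ARR6 and ARR15 had fewer UMIs, and ARR15 was the only one of them past 1.5-fold.

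AHP6 was measured at 53.7 CPM in the day 3 library (49.5 to 58.2) and 23.1 CPM in the day 4 library (20.3 to 26.3). The 595 and 236 UMIs behind these levels gave a ratio of day 4 over day 3 of 0.431 (0.369 to 0.502), a log2 ratio of -1.18. The UMIs sat in few nuclei: 256 nuclei carried at least 1 at day 3, of which 102 carried 2 or more and 1 carried 16, and at day 4 it was 101 nuclei, 41 of them with 2 or more. AHP6 UMIs per positive nucleus were 2.32 and 2.34, so positive nuclei were fewer at day 4 and carried about as many UMIs each. Among the 8 other genes the same quantity lay between 1.08 and 1.36.

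With each nucleus thinned to 1000 UMIs, AHP6 was detected in 3.25% of nuclei at day 3 (143 of 4397, exact interval 2.75 to 3.82) and in 1.41% at day 4 (64 of 4545, 1.09 to 1.79). Without thinning the shares were 5.82% and 2.22%. No class of these nuclei is known to lack AHP6, so the lowest class stands beside them: at day 3 it was the epidermis-like cluster described below, with 0.275% of thinned nuclei (1 of 364, median 1823.5 UMIs before thinning, against 1842 over the library), and at day 4 the cortex-like cluster, with 0.207% (2 of 968, median 1678 UMIs) among clusters of over 100 nuclei. Free RNA in the droplets adds UMIs to any nucleus. In the day 3 table, which holds all barcodes, the 642358 barcodes with fewer than 500 nuclear genes gave AHP6 at 43.1 CPM (39.9 to 46.6), and the day 4 table holds called nuclei and was not used for this value. Barcodes under 500 genes need not be empty droplets. The 5541 day 3 barcodes with 10 to 100 UMIs gave AHP6 at 49.7 CPM (30.4 to 76.8), from 20 UMIs. The part of free RNA in the AHP6 levels was not tested.

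Just outside and just inside the minimum of 1000 genes, AHP6 stood at 50.4 CPM (800 to under 1000 genes) and 44.4 CPM (1000 to under 1200 genes) at day 3, and at 12.3 and 22.3 CPM at day 4. In the same bands ARR4 stood at 49.4 and 46.0 CPM at day 3 and at 64.1 and 65.3 CPM at day 4. Both genes kept their order between the days on both sides of the minimum.

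The receptors start the pathway. AHK2 stood at 91.1 CPM in the day 3 library (85.6 to 96.9) and 114.8 CPM in the day 4 library (108.3 to 121.5), a ratio of 1.26 (1.16 to 1.37). AHK3 stood at 63.6 CPM (59.0 to 68.5) and 84.2 CPM (78.7 to 90.0), a ratio of 1.32 (1.20 to 1.46). For both, the intervals of the 2 days did not overlap. AHK4, the receptor also known as CRE1 or WOODEN LEG and needed for vascular cell divisions in the root, stood at 66.4 CPM (61.7 to 71.4) and 70.4 CPM (65.3 to 75.7), and its ratio of 1.06 (0.955 to 1.18) did not leave counting error. Its log2 ratio of 0.08 was -0.01 with TMM factors and -0.02 with a median-of-ratios scaling. The median log2 ratio of the 3 receptors was 0.33.

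The type-A regulators, rapid targets of the pathway, had log2 ratios above 0 in 5 of 5 cases, with a median of 0.43, beside 8894 of 14740 genes above 0 and a median of 0.08 over all genes. ARR4 stood at 52.5 CPM in the day 3 library (48.3 to 57.0) and 73.2 CPM in the day 4 library (68.1 to 78.7), a ratio of 1.39 (1.25 to 1.56). ARR7, which WUSCHEL represses in the shoot meristem, stood at 60.4 CPM (55.9 to 65.1) and 77.5 CPM (72.2 to 83.1), a ratio of 1.28 (1.16 to 1.43). For these 2 genes the intervals of the days lay apart. ARR15, a close relative of ARR7, stood at 5.77 CPM (4.45 to 7.37) and 13.0 CPM (10.9 to 15.4), from 64 and 133 UMIs, and its ratio of 2.26 (1.66 to 3.09) was the largest of the 9 genes.

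ARR5 and ARR6, both common reporters of cytokinin response, were sparse. ARR5 had 82 UMIs (7.40 CPM) at day 3 and 102 (10.0 CPM) at day 4, a ratio of 1.35 (1.00 to 1.83), and with nuclei thinned to 1000 UMIs its log2 ratio changed from 0.39 to -0.26. ARR6 had 52 UMIs (4.69 CPM) and 68 (6.67 CPM), a ratio of 1.42 (0.976 to 2.08). Neither difference was clear at this depth.

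**Figure D1:**
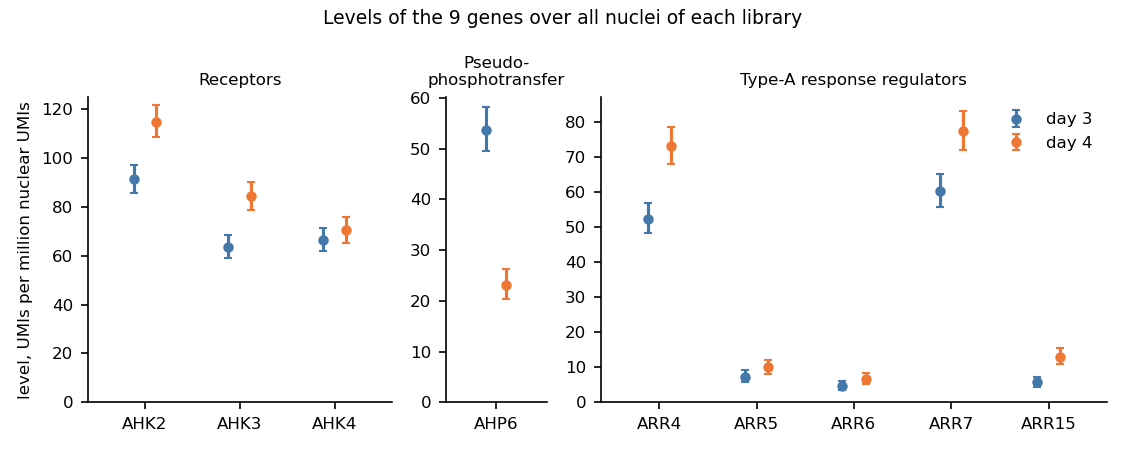
Level of each of the 9 genes over all nuclei of the day 3 library (blue) and the day 4 library (orange), in UMIs per 1000000 nuclear UMIs; points are 1 library each and bars the exact 95% Poisson interval. AHP6 is at 53.7 and 23.1 CPM, in the opposite order to AHK2, AHK3, ARR4, ARR7 and ARR15.

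Levels by tissue rested on 11 clusters formed from both libraries together, with all cytokinin genes left out of the genes used to cluster, so that the 9 genes did not shape them. Clusters were named from marker lists, counting those whose level was 2-fold or more that of the remaining nuclei. The largest were cortex-like (1714 nuclei, 4 of 4 cortex markers, and 3 of 6 mesophyll markers) and procambium-like (1651 nuclei, 7 of 7 procambium and 5 of 7 xylem markers). Epidermis-like (922 nuclei, 9 of 10 markers) and G2/M-like (761, 9 of 11) clusters followed. The S phase-like (607) and phloem-like (125) clusters had only 4 of 9 and 5 of 8 markers. A smaller procambium-like cluster (140, 5 of 7 markers) also held 4 of 8 phloem and 4 of 11 G2/M markers. Where the procambium-like cluster is named with no size, the larger one is meant. The floral meristem-like cluster (818 nuclei) had 6 of 8 markers up (AP3, PI, AG, SEP3, LFY and REM34), although other genes, among them the transporter gene ABCB4 and the glucosyltransferase gene UGT74E2, led it. The remaining 3 clusters stayed unnamed and are called here by a gene among their 10 leading ones. They are the CYCA1;1 cluster (935 nuclei, with 5 of 11 G2/M markers), the LTP6 cluster (916) and the HTA6 cluster (353). The HTA6 cluster had 5 of 10 epidermis and 4 of 9 S phase markers. HTA6, a histone gene, also led the S phase-like cluster.

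In the joint clusters, the placement of AHP6 differed between the days. At day 3 it was spread over dividing, floral and vascular nuclei, from 14.6 CPM in the epidermis-like cluster to 90.6 CPM in the CYCA1;1 cluster. At day 4 the floral meristem-like cluster stood highest, at 86.4 CPM (67.3 to 109), and the cortex-like cluster lowest, at 4.59 CPM (2.10 to 8.72), where it had stood at 16.2 CPM (10.5 to 23.9) at day 3, a ratio of 0.284 (0.117 to 0.629). AHP6 was lower at day 4 in 10 of 11 clusters, and in 5 of them the interval of the ratio stayed below 1. The placement depended on the clusters. With each library clustered alone, the cluster matching the floral meristem-like one stood above the other nuclei on both days. AHP6 was then at 139 CPM against 49.5 CPM in the other nuclei at day 3, and at 80.1 against 16.5 CPM at day 4.

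The procambium-like cluster had the lowest day ratio of AHP6. There AHP6 went from 88 UMIs (45.0 CPM, 36.1 to 55.4) at day 3 to 16 UMIs (7.46 CPM, 4.27 to 12.1) at day 4, a ratio of 0.166 (0.0909 to 0.285). At day 3, 40 of 728 nuclei carried AHP6, 12 of them with 2 or more UMIs and at most 9, and at day 4 it was 11 of 923 nuclei, 3 of them with 2 or more. After thinning the shares were 3.02% (1.90 to 4.54) and 0.433% (0.118 to 1.11). Of the 9 genes, all with at least 50 UMIs in this cluster, AHP6 alone was lower by 1.5-fold, where 4.92% of all genes were, and 0 were higher, where 6.35% of all genes were. In the other clusterings tried, AHP6 in the matching cluster lay between 43.3 and 55.6 CPM at day 3 and between 3.63 and 7.71 CPM at day 4. The summed level of the 7 procambium markers in this cluster was 2692 CPM and 3096 CPM, and that of the 7 xylem markers was 513 and 426 CPM. Their part in the AHP6 difference was not tested.

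The CYCA1;1 and S phase-like clusters, both of dividing nuclei, followed the same course. AHP6 stood at 90.6 CPM (74.2 to 110) in the CYCA1;1 cluster at day 3 and at 18.8 CPM (11.5 to 29.0) at day 4. In the S phase-like cluster it stood at 87.2 CPM (66.2 to 113) and 22.8 CPM (12.7 to 37.5), and in the G2/M-like cluster at 53.1 CPM (40.7 to 68.1) and 30.6 CPM (20.0 to 44.8). The ratio in the G2/M-like cluster was the nearest to 1 of these clusters, at 0.575 (0.349 to 0.923). In the HTA6 cluster, which also had S phase markers up, the ratio was 0.728 (0.392 to 1.31), so this course was not shared by all clusters of dividing nuclei.

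In the floral meristem-like cluster the AHP6 levels of the days overlapped. It held 58 UMIs (79.5 CPM, 60.4 to 103) at day 3 and 70 UMIs (86.4 CPM) at day 4, a ratio of 1.09 (0.756 to 1.57), and its share of all AHP6 UMIs was 9.75% at day 3 and 29.7% at day 4. The 10 nuclei with the most AHP6 held 74.1% and 78.6% of these UMIs. After thinning, 4.92% (2.99 to 7.58) and 4.40% (2.67 to 6.78) of its nuclei carried AHP6. The cluster itself held 6.58% and 7.94% of the UMIs of all genes. The level depended on the clusters: with each library clustered alone, the matching cluster had AHP6 at 139 CPM at day 3 and 80.1 CPM at day 4. The summed level of the 8 floral meristem markers in this cluster was 1778 CPM at day 3 and 1330 CPM at day 4, and its part in the AHP6 values was not tested.

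The LTP6 cluster held the most AHP6 UMIs at day 3 (136, or 22.9% of all) at 65.6 CPM (55.1 to 77.6), and stood at 51.4 CPM (36.2 to 70.9) at day 4. The HTA6 cluster stood at 75.2 CPM (52.1 to 105) and 54.7 CPM (32.9 to 85.4). In both clusters the intervals of the days overlapped. The epidermis-like cluster was low on both days, at 14.6 CPM (7.78 to 25.0) and 14.3 CPM (8.47 to 22.6). Of neighbouring clusters in the order of AHP6 levels, 7 of 8 pairs at day 3 and 8 of 8 at day 4 had overlapping intervals, among the 9 clusters with at least 100 nuclei in each library.

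**Figure D2:**
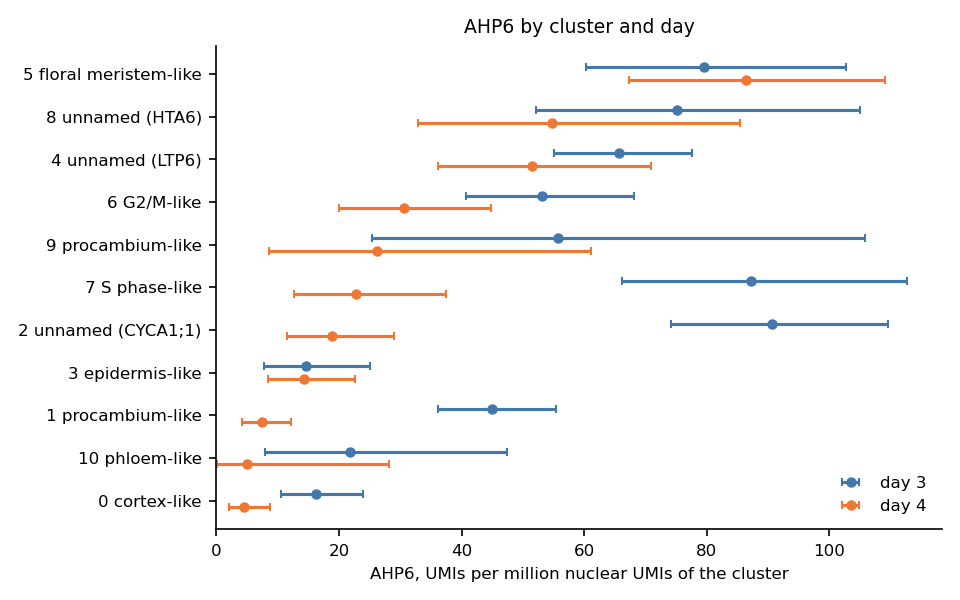
AHP6 level in each of the 11 clusters, in UMIs per 1000000 nuclear UMIs of the cluster, at day 3 (blue) and day 4 (orange), ordered by the day 4 level; bars are exact 95% Poisson intervals. The days lie apart in the larger procambium-like (45.0 and 7.46 CPM), cortex-like, CYCA1;1 and S phase-like clusters. They overlap in the floral meristem-like cluster (79.5 and 86.4 CPM).

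**Figure D3:**
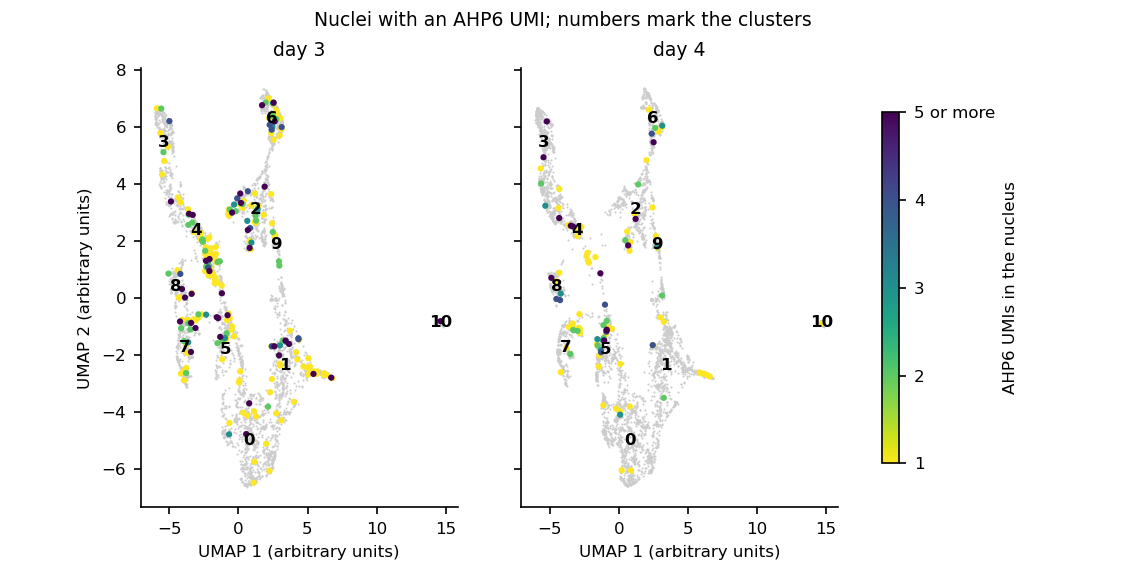
Nuclei of each library on the joint UMAP (arbitrary units), with nuclei that hold an AHP6 UMI coloured by their number of AHP6 UMIs (5 or more share a colour) and the remaining nuclei in grey; numbers mark the clusters, 1 being procambium-like, 5 floral meristem-like, 4 the LTP6 cluster and 2 the CYCA1;1 cluster. At day 3, 256 coloured nuclei spread over most clusters, and at day 4 there are 101.

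The type-A regulators and AHK4 stood high in the larger procambium-like cluster. At day 3, 6 of the 9 genes (ARR4, ARR5, ARR6, ARR7, ARR15 and AHK4) were at least 1.5-fold higher in the procambium-like cluster than in the other nuclei of the library, where 9.42% of all genes were, and 0 were lower, where 10.6% were. At day 4 it was 4 genes (ARR4, ARR5, ARR6 and AHK4), where 8.69% of all genes were higher, and AHP6 was lower, as 12.2% of all genes were. ARR4 stood at 109 CPM in the cluster and 40.3 CPM in the other nuclei at day 3, a ratio of 2.71 (2.28 to 3.22). At day 4 it stood at 141 and 55.1 CPM, a ratio of 2.57 (2.21 to 2.98). The ARR4 ratio was smaller, with log2 values down to 0.70 at day 3, where a finer or another clustering divided these nuclei. The smaller procambium-like cluster did not share all of this. ARR4 stood there at 86.7 and 105 CPM and AHK4 at 61.9 and 89.2 CPM at day 3 and day 4, but ARR7 at 18.6 and 36.7 CPM. ARR5, ARR6 and ARR15 had at most 3 UMIs there on each day. AHP6 stood there at 55.7 CPM (25.5 to 106) and 26.2 CPM (8.51 to 61.2).

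AHK4 was the only receptor past 1.5-fold in the procambium-like cluster. It stood at 106 CPM in the procambium-like cluster and 58.0 CPM elsewhere at day 3, and at 123 and 56.5 CPM at day 4, with ratios of 1.83 (1.55 to 2.15) and 2.17 (1.86 to 2.53). AHK2 and AHK3 had ratios of 1.07 and 0.986 at day 3 and of 1.15 at day 4 for both. AHP6 in the same cluster went from a ratio of 0.810 (0.638 to 1.02) at day 3 to 0.273 (0.154 to 0.454) at day 4.

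The phloem-like cluster, with 63 and 62 nuclei, held the highest ARR4 and ARR6 levels of the 11 clusters on both days. At day 4 it also held the highest ARR5 level, 40.4 CPM (17.4 to 79.5) from 8 UMIs. The same went for AHK4 at day 4, at 126 CPM (81.6 to 186), against 123 CPM (108 to 138) in the larger procambium-like cluster. ARR6 stood there at 40.0 CPM in the day 3 library (20.0 to 71.5) and 45.4 CPM in the day 4 library (20.8 to 86.2), from 11 and 9 UMIs, against 4.69 and 6.67 CPM over whole libraries. ARR4 stood there at 134 CPM (94.7 to 185) and 217 CPM (157 to 292). AHP6 had 6 UMIs in the cluster at day 3, all in 1 nucleus, and 1 at day 4.

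The day ratios of the type-A genes were not alike across clusters. ARR4 was higher at day 4 in the procambium-like cluster, from 109 to 141 CPM with a ratio of 1.29 (1.08 to 1.55), and in the G2/M-like cluster, from 20.6 to 49.4 CPM with a ratio of 2.40 (1.42 to 4.15). In the cortex-like cluster ARR4 stood at 83.5 CPM (69.7 to 99.2) and 82.7 CPM (70.4 to 96.4). ARR7 showed its clearest difference in the cortex-like cluster, at 71.2 CPM (58.5 to 85.8) and 111 CPM (97.0 to 127), while in the procambium-like cluster it stood at 90.0 CPM (77.2 to 104) and 92.4 CPM (79.9 to 106). ARR15 went from 3 UMIs in the G2/M-like cluster at day 3 to 19 at day 4, which is 2.57 CPM (0.530 to 7.51) and 22.3 CPM (13.4 to 34.9).

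The floral meristem-like cluster was low in type-A transcripts, though ARR7 at day 3 had a ratio over the other nuclei of 0.760 (0.522 to 1.07). At day 3, 4 of the 9 genes (ARR4, ARR5, ARR6 and ARR15) were at least 1.5-fold lower there than in the other nuclei, where 16.0% of all genes were, and 2 (AHP6 and AHK2) were higher, where 9.15% were. ARR5, ARR6 and ARR15 had 1 UMI each in the cluster at day 3, and the upper bounds of their ratios were 1.00, 1.62 and 1.30. At day 4, all 5 type-A genes were lower, where 17.5% of all genes were, though the interval of ARR15 reached 1.08, and AHP6 was higher, where 8.00% were. AHP6 stood at 79.5 CPM in the cluster and 51.9 CPM in the other nuclei at day 3, a ratio of 1.53 (1.15 to 2.01). At day 4 the values were 86.4 and 17.7 CPM, a ratio of 4.89 (3.64 to 6.50). ARR4 had the opposite placement, with ratios of 0.273 (0.136 to 0.493) and 0.368 (0.232 to 0.557). Low ARR4 beside high AHP6 was not particular to this cluster. In the LTP6 cluster ARR4 stood at 17.9 CPM at day 3 and 16.7 CPM at day 4, and AHP6 at 65.6 and 51.4 CPM. There ARR5 had 7 and 0 UMIs, ARR6 0 and 1 and ARR15 10 and 2, while ARR7 stood at 44.9 and 66.7 CPM.

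Within the floral meristem-like cluster, 5 of the 9 genes had at least 50 UMIs, and between the days 0 of them were 1.5-fold lower, where 7.92% of all genes were, and 0 were higher, where 9.78% were. AHK2 was highest in this cluster at day 3, at 148 CPM (121 to 179), and stood at 111 CPM (89.3 to 137) at day 4. In the cortex-like cluster it went the other way, from 101 CPM (85.7 to 118) to 145 CPM (129 to 163). Among the 9 clusters with at least 100 nuclei in each library, AHK3 varied least of the 9 genes at day 4, by 1.40-fold between the cortex-like and the CYCA1;1 cluster.

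**Figure D4:**
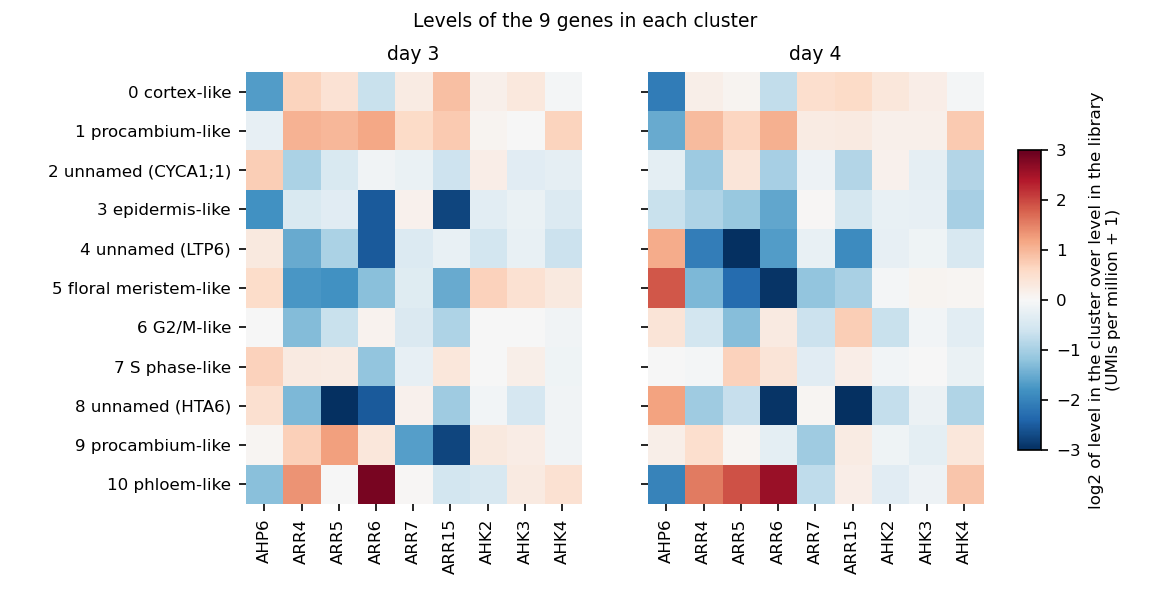
Level of each of the 9 genes in each cluster relative to the gene's level over the whole library, as a log2 ratio of CPM + 1 in colour (red above, blue below), for day 3 and day 4. ARR4, ARR5 and ARR6 are red in the larger procambium-like cluster and blue in the floral meristem-like cluster on both days. AHP6 in the larger procambium-like cluster is pale at day 3 and blue at day 4.

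Across the 9 clusters with at least 100 nuclei in each library, taken on both days (18 points), the level of AHP6 ran against those of the type-A genes. Pearson's r of AHP6 was -0.62 with ARR4, -0.57 with ARR5, -0.38 with ARR6, -0.70 with ARR7 and -0.56 with ARR15, and -0.28, -0.41 and -0.05 with AHK2, AHK3 and AHK4. ARR4 and ARR5 had r of 0.84. These points share 2 libraries and their depth, and each r mixes differences between clusters with those between days. The 9 genes were chosen on such levels, so the values are a description. Some points of ARR5, ARR6 and ARR15 rest on few or no UMIs. How many other genes had r this low with AHP6 is not given here.

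Over the same 18 points, the genes most like AHP6 among 14739 others were AT5G51800 (r of 0.94, annotated as a protein kinase superfamily member), AT3G13440 (0.91), AT1G68140 (0.88), CRF2 (0.85) and AT4G32610 (0.85). AT5G51800 stood at 25.4 CPM at day 3 and 12.9 CPM at day 4 over whole libraries. In the procambium-like cluster it stood at 14.8 and 3.26 CPM, and in the floral meristem-like cluster at 34.3 and 49.4 CPM. CRF2, a cytokinin response factor of the AP2/ERF family, is itself in the pathway list.

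The nuclei that carried AHP6 were compared with those that did not. They held more UMIs at the median, 2678.5 against 1823 at day 3 and 1986 against 1800 at day 4, so levels were taken per 1000000 UMIs. The 5 genes given here were chosen for the highest ratio between these groups, so their ratios are a description. AT5G51800 stood at 115 CPM (95.4 to 137) in AHP6 nuclei and 15.8 CPM (13.4 to 18.5) in the others at day 3, and at 166 CPM (121 to 223) and 8.76 CPM (7.02 to 10.8) at day 4. ROXY1, a glutaredoxin needed for petal development, stood at 174 and 37.5 CPM at day 3 and at 170 and 19.5 CPM at day 4. AT3G25640 stood at 90.7 CPM in AHP6 nuclei at day 3, a ratio of 5.04 over the others, and at 85.0 CPM at day 4, a ratio of 12.8. AT1G55200 stood at 308 and 120 CPM at day 3 and at 558 and 120 CPM at day 4. ULT1, a regulator of floral meristem size, stood at 128 and 47.9 CPM at day 3 and at 96.1 and 26.2 CPM at day 4.

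Among the 8 other genes, ARR4 at day 3 and ARR7 and AHK2 at day 4 stood lower in nuclei with AHP6, with intervals of the ratio below 1, as did ARR6 at day 3. ARR4 stood at 33.3 CPM (23.3 to 46.1) in them and 54.6 CPM (50.1 to 59.4) in the others at day 3, and ARR6 had 0 UMIs in them on both days, which allows up to 3.41 CPM at day 3 and 13.6 CPM at day 4, against 5.20 and 6.85 CPM in the others. At day 4 ARR7 stood at 25.9 CPM (10.4 to 53.3) in AHP6 nuclei and 78.9 CPM (73.5 to 84.7) in the others, while at day 3 its values of 51.8 CPM (39.1 to 67.3) and 61.3 CPM (56.5 to 66.3) overlapped. AHK2 stood at 62.8 CPM (36.6 to 101) and 116 CPM (110 to 123) at day 4, and at 94.4 CPM (76.9 to 115) and 90.8 CPM (85.0 to 96.9) at day 3. At day 4 the ARR4 values were 59.1 CPM (33.8 to 96.0) and 73.6 CPM (68.4 to 79.1), which overlap. In the remaining comparisons the interval of the ratio reached 1. AHK3 and AHK4 stood higher in AHP6 nuclei at day 4, with ratios of 1.24 (0.817 to 1.80) and 1.27 (0.808 to 1.90). Clusters were not kept apart here. At day 3, 71 of the 256 AHP6 nuclei were in the LTP6 cluster, where ARR4 stood at 17.9 CPM. At day 4, 22 of 101 were in the floral meristem-like cluster, where ARR7 stood at 33.3 CPM. The part of the clusters in these ratios was not tested. None of ARR4, ARR6, ARR7 and AHK2 had an interval below 1 on both days. The share of all genes with such an interval was not computed, so these values do not set the cytokinin genes apart.

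Beyond the 9 genes, a list of 65 cytokinin genes covered receptors, phosphotransfer proteins, regulators, cytokinin response factors, synthesis, breakdown and transport. It had 30 genes with at least 200 UMIs, of which 22 had a log2 ratio above 0 and 8 below, beside 8894 above and 5846 below among all 14740 genes. Without the 9 genes, 24 remained, of which 2 were at least 1.5-fold higher, 0 were lower and the median log2 ratio was 0.19, beside 0.08 over all genes. The 2 were LOG5, an enzyme that releases active cytokinin, at 207 CPM (198 to 215) and 335 CPM (324 to 346), and CRF6 at 39.3 CPM (35.7 to 43.2) and 70.9 CPM (65.8 to 76.2).

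None of the active phosphotransfer genes with at least 200 UMIs passed 1.5-fold. AHP2 stood at 43.8 and 48.0 CPM, a ratio of 1.10 (0.966 to 1.25). AHP3 stood at 28.1 and 36.4 CPM, a ratio of 1.29 (1.11 to 1.51), and AHP5 at 49.3 and 62.1 CPM, a ratio of 1.26 (1.12 to 1.42). AHP1 had 32 and 40 UMIs and AHP4 had 0 and 1. ARR8 and ARR9, type-A genes outside the 9, stood at 47.5 and 65.7 CPM and at 20.3 and 30.7 CPM. Among type-B regulators with at least 200 UMIs, 4 of 5 were above 0, as were 8894 of all 14740 genes, and ARR1 stood at 105 and 87.9 CPM. CRF2 had the lowest log2 ratio of the genes outside the 9 with at least 200 UMIs, -0.53, from 209 to 145 CPM.

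**Figure D5:**
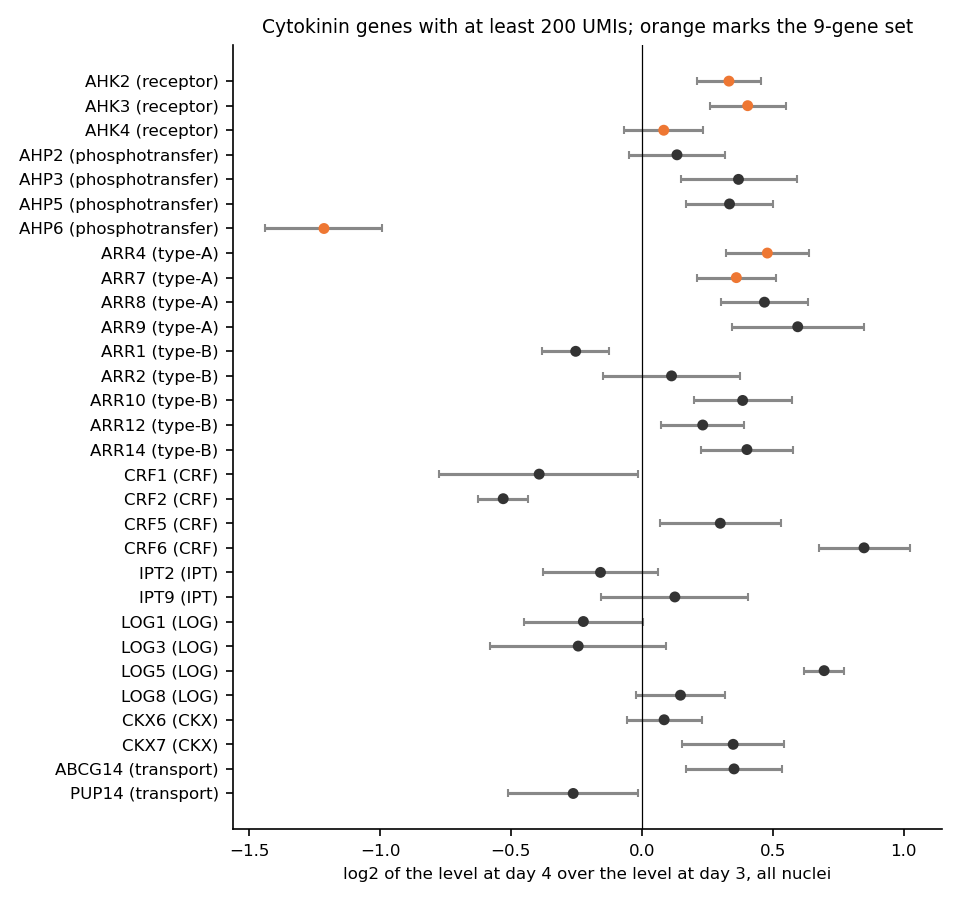
Log2 of the level at day 4 over the level at day 3 over all nuclei for the 30 cytokinin pathway genes with at least 200 UMIs, with the role in brackets; bars are exact 95% intervals of the ratio, orange points the genes of the 9 and dark points the others. AHP6 (ratio of 0.431) lies farthest to the left, and CRF6 (1.80) and LOG5 (1.62) farthest to the right.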

How the data were processed

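Nuclei of pooled inflorescences were sorted on DAPI and profiled with 10x Genomics 3′ single-nucleus RNA-seq. The authors made the deposited raw UMI counts per gene and barcode with Cell Ranger 3.1.0 and the Araport11 annotation. The genome build used for these counts is not given in the sources used here. No correction for free RNA and no doublet removal is stated, and the day 4 table was already restricted to called nuclei.

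Barcodes with at least 1000 nuclear genes were kept and organelle genes left out. Levels are UMIs per 1000000 nuclear UMIs (CPM). With 1 library per day no test, p-value or standard error was computed. Intervals are exact Poisson, Clopper-Pearson or conditional ratio intervals at 95% from scipy 1.17.1, and they cover counting error only. Ratios past 1.5-fold were counted on the log2(CPM + 1) scale among genes with at least 200 UMIs over both libraries, or, in cluster comparisons, at least 50. Both libraries were clustered with Seurat 5.3.0 and sctransform 0.4.2 in R 4.3.3, on 3000 variable genes less the cytokinin genes. A UMAP was made from 9 principal components with uwot 0.2.3. The clusters were formed on the coordinates of that UMAP, at resolution 0.04. Scrublet in scanpy 1.11.5 marked 0 and 2 nuclei as doublets, too few to be used as calls, and no nuclei were removed for it. The scripts were tested on simulated data.

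The 9 genes and all lists were chosen with earlier results of these data known. Named genes are those 9, the pathway genes with the largest change among those with at least 200 UMIs, the 5 genes most correlated with AHP6 over clusters, on log2(CPM + 10), and the 5 most enriched in nuclei with an AHP6 UMI. Other pathway genes given with values were named after their values were seen. Alternatives were TMM factors (edgeR 4.0.16), median of ratios, a pseudocount of 10, other gene minimums, thinning to 1000 UMIs, leaving out the 8% highest doublet scores, and other clusterings. Sequences came from RefSeq TAIR10.1, and all 36632 nuclear gene IDs had an entry.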

Additional observations from a re-analysis of the deposited data

Results flagged for a closer look

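These results had day 4 over day 3 ratios on opposite sides of 1 in 2 clusters, with intervals that did not overlap. Each day has 1 library, so the differences between clusters were not tested. AHP6 had a ratio of 1.09 in the floral meristem-like cluster, against 0.166 in the procambium-like, 0.208 in the CYCA1;1 and 0.261 in the S phase-like cluster. With each library clustered alone, the log2 ratio of AHP6 in the floral meristem-like cluster was -0.79, so that its ratio was then below 1 as well. ARR4 had a ratio of 2.40 in the G2/M-like cluster and 0.990 in the cortex-like cluster. ARR7 had a ratio of 1.56 in the cortex-like cluster and 0.715 in the floral meristem-like cluster. AHK2 had ratios of 1.44, 1.33 and 1.56 in the cortex-like, procambium-like and LTP6 clusters, against 0.750 in the floral meristem-like and 0.790 in the G2/M-like cluster.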

How the results depend on the processing

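AHP6 was lower at day 4 under each of the 8 alternatives, with log2 ratios from -1.30 to -0.93, against -1.18. It was -0.94 with a pseudocount of 10 CPM and -0.93 with the cluster make-up of day 3, an alternative chosen after seeing the data. Of the 8 other genes, 6 kept their direction under the same alternatives, while ARR5 was at -0.26 after thinning and AHK4 was below 0 under 3 of them (lowest -0.02). TMM factors moved log2 ratios by -0.09 and median of ratios by -0.11 before the pseudocount, and by less in low genes with it. Of the 9 genes, 1 (ARR15) was at least 1.5-fold higher at day 4, against 0 with a pseudocount of 10 CPM and 2 with a minimum of 1500 genes or with thinning. The share of nuclei with AHP6 was 5.82% and 2.22% at full depth, and 1.91% and 0.784% with a minimum of 500 genes and thinning to 500 UMIs. With each library clustered alone, the log2 ratio of AHP6 between the days in the floral meristem-like cluster was -0.79 in place of 0.12, and its log2 ratio there over other nuclei at day 3 was 1.47 in place of 0.61. The log2 ratio of ARR4 in the procambium-like cluster over other nuclei at day 3 was 1.42, and 0.99 with libraries clustered alone, 0.70 at resolution 0.1 and 0.70 with cytokinin genes allowed. At day 4 it was 1.34, and 0.92 and 0.91 under the last 2. The matching clusters held fewer nuclei, and the cause was not tested.

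No paired analysis was possible because each day has 1 library, and no replicate was left out for the same reason. Day, PCR cycles and sequencer cannot be told apart. Free RNA was not removed, and genes under 200 UMIs, such as ARR5 and ARR6, are limited by depth.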

Other observations

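Some further genes of the pathway list are given by cluster, picked after their values were seen. ABCG14, which exports cytokinin for transport from root to shoot, was measured in the phloem-like cluster at 436 CPM in the day 3 library (362 to 521) and 858 CPM in the day 4 library (734 to 997), against 40.7 and 51.9 CPM over whole libraries. AHP3 stood there at 185 CPM (138 to 244) and 368 CPM (289 to 463). IPT3, an enzyme of cytokinin synthesis, had 10 UMIs in both libraries together, all in this cluster at day 3, and its 0 UMIs there at day 4 allow up to 18.6 CPM. IPT5, of the same family, had 19 of its 23 day 3 UMIs there and 3 of its 4 day 4 UMIs. LOG5 stood at 418 CPM (390 to 447) and 685 CPM (651 to 721) in the procambium-like cluster. CRF6 stood at 52.1 CPM (36.9 to 71.5) and 138 CPM (114 to 166) in the floral meristem-like cluster, and at 36.2 CPM (28.5 to 45.4) and 122 CPM (98.1 to 151) in the LTP6 cluster.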
